A study of Mus musculus with 10 samples.

Results

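The 10 granulosa cell captures of this study were divided by how much stromal RNA they held. The classes were chosen by a measured value, the summed CPM (normalised read count: a gene's estimated reads divided by the library's reads in rows named by a gene symbol, in parts per 1000000) of 16 marker genes of ovarian fibroblasts, smooth muscle and pericytes. The 6 libraries with a sum of 300 CPM or more are called stroma-RNA-rich, and the 4 below it stroma-RNA-poor. Together these are all 10 libraries of the series. The classes are not groups of the study. The marker levels are therefore given as a description, and a test on any other gene asks whether it goes with the marker sum in these libraries.

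Laser microdissection had been used to cut granulosa cells out of the ovaries of C57B6/J wild-type females aged 3 weeks. The mice received intraperitoneal N-acetyl-L-cysteine (NAC), which supplies cysteine for glutathione synthesis, at 150 mg/kg on 3 consecutive days, or saline on the same days, and ovaries were taken on day 4. The labels give 4 NAC libraries and 6 saline libraries, all of batch 1, and name no animal for any library, so p-values measure the spread between captures, which may in part be technical. RNA was amplified and sequenced by GEO-seq, a protocol for small areas of tissue. The rich libraries are NAC 1, NAC 2, NAC 4, saline 2, saline 5 and saline 6, and the poor ones NAC 3, saline 1, saline 3 and saline 4. Thus 3 of 4 NAC and 3 of 6 saline libraries were rich.

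A follicle is a ball of granulosa cells around an oocyte, closed by a basement membrane. Outside that membrane lie the theca layers, with steroid-producing cells, fibroblasts, smooth muscle cells, capillaries and their pericytes, and beyond them the ovarian stroma. Granulosa cells themselves have no blood vessels among them in a growing follicle, so collagen type I, smooth muscle actin and endothelial transcripts are textbook marks of the tissue outside the membrane. In captures of this kind, more cells of a type and more RNA per cell cannot be told apart.

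Depth differed between libraries. Rich libraries held 509945 to 2488408 estimated reads and poor libraries 116461 to 2471066, a difference of 0.65 in mean log2 reads (exact two-sided permutation test over 210 splits, p = 0.605). NAC 3, a poor library, was the shallowest, so that 1 of its reads stands for 8.64 CPM and a count of 0 there allows up to 25.9 CPM (3 reads; such floors, like the intervals given for sums, cover counting error only, as PCR copies are not separate molecules). Reads were found for 84.8% of the tested genes in NAC 2 and 85.0% in NAC 3, against 97.7% to 99.5% elsewhere. The median gap between deposited and effective length in rows over 1000 bases, which tracks fragment length, was 276 and 306 bases in these 2 libraries and 210 to 236 in the others. NAC 2 or NAC 3 often holds the extreme value of a range below and is not always named. Among the rich libraries NAC 2 is highest for Col3a1, Prss35, Stc1, Cald1, Emcn, Nid1 and Col4a1. It is also highest for the sums of other smooth muscle, pericyte and endothelial genes. Among the poor libraries NAC 3, at 1 read, is highest for Tcf21, Tpm2 and Nrp1 and lowest for Col4a1 and Col4a2.

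The marker sum itself was 554 CPM at its lowest among the rich libraries (saline 2) and 2730 at its highest (NAC 2). The others held 623 CPM in saline 5, 1003 in NAC 4, 1155 in saline 6 and 1370 in NAC 1. Among the poor libraries it was 95.8 CPM in saline 3, 112 in NAC 3, 116 in saline 1 and 156 in saline 4. No library lay between 156 and 554 CPM, so thresholds of 200 and 500 gave the same classes. The sum in NAC 3 rested on 13 reads, with an exact 95% binomial interval of 59.8 to 192 CPM, which lies below 300. Leaving out any 1 of the 16 markers moved 0 libraries across the threshold. Ranking by the 10 fibroblast genes alone, or by the 6 smooth muscle and pericyte genes alone, also put the same 6 libraries on top. All these checks use parts of the values that set the classes, so their agreement follows in part from the rule.

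**Figure D1:**
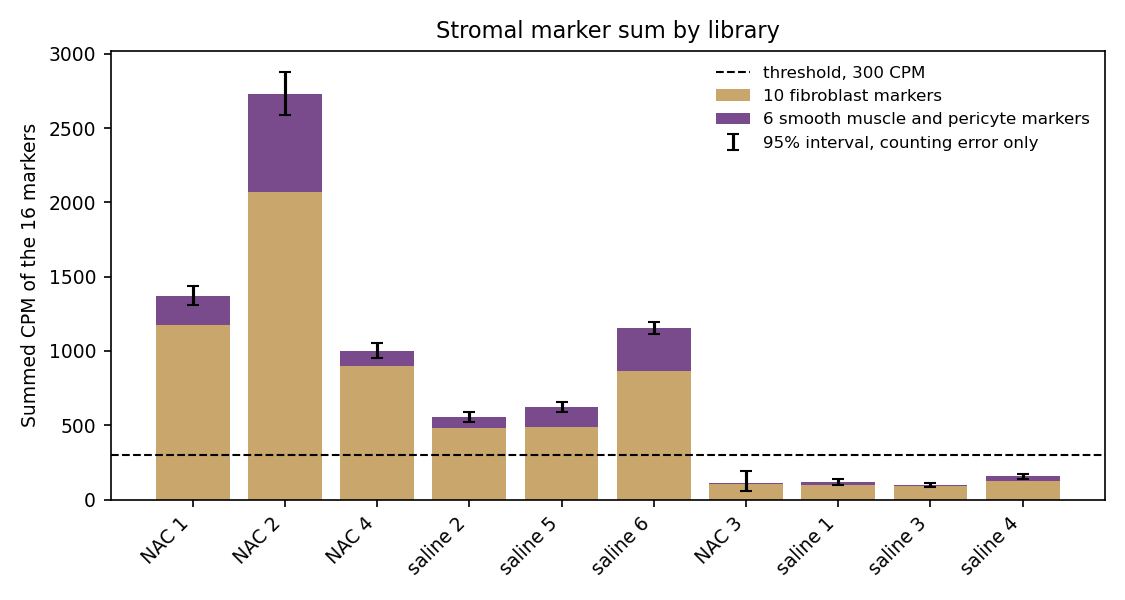
Summed CPM of the 16 marker genes in each of the 10 libraries (y axis), with the fibroblast and the smooth muscle and pericyte markers stacked; bars on top are exact 95% binomial intervals of the sum and cover counting error only, and the dashed line is the threshold of 300 CPM. The 6 rich libraries stand at 554 to 2730 CPM and the 4 poor libraries at 95.8 to 156 CPM.

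Collagen genes led the sum. Col1a1 encodes a chain of type I collagen, the main fibre of connective tissue (GRCm38 chromosome 11, 94936224 to 94953042). It had 25.6 CPM in NAC 2, a median of 119 and at most 349 (NAC 1) among the rich libraries, and 0, 15.8, 8.96 and 12.5 CPM in NAC 3, saline 1, saline 3 and saline 4. Col1a2, the partner chain (chromosome 6, 4504814 to 4541544), ranged from 144 to 560 CPM with a median of 310 in the rich libraries, against 8.64 to 56.2 in the poor. The values of both genes did not overlap between classes. Col3a1, the type III chain (chromosome 1, 45311538 to 45349706), was at 85.6 to 538 CPM in the rich and 24.0 to 51.9 in the poor libraries.

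The 2 type I chains kept no fixed ratio. Col1a1 divided by Col1a2 in CPM was 0.0458 in NAC 2, 0.409 to 1.01 in the other rich libraries, and 0.223 to 0.393 in the saline poor libraries. NAC 2 was thus the library with the highest Col1a2 and, among the rich, the one with the lowest Col1a1. The longest transcript of Col1a1 has a GC content of 58.9% and that of Col1a2 55.7%. Dcn, which encodes the small proteoglycan decorin and has a GC content of 37.4%, had 372 CPM in NAC 2 and 27.0 to 60.6 in the other rich libraries. The part of GC content in these values was not tested.

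Other fibroblast markers were lower and more uneven. Pdgfra, the receptor for PDGF on stromal precursors, was at 7.21 to 59.1 CPM in the rich and at 0 to 4.36 in the poor libraries. Tcf21, a transcription factor of mesenchymal cells, had 11.7 to 61.1 and 0 to 8.64 CPM. Both were thus apart between the classes, as was Dcn (at most 8.96 CPM in the poor). Lum, which encodes lumican, was at 0 in saline 2 although that library is rich, and Ogn, Mfap5 and Fbln5 also overlapped between classes. In all, 6 of the 10 fibroblast markers did not overlap, beside 0.723% of tested genes other than the markers that lay higher in each rich library. The markers set the classes, so the separation of any marker follows in part from the rule.

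The contractile markers followed the fibroblast markers only in part. Acta2, smooth muscle actin (chromosome 19, 34241090 to 34255590), had 44.3 to 307 CPM in the rich libraries (median 106), and 0, 7.51, 2.04 and 15.6 CPM in NAC 3, saline 1, saline 3 and saline 4. It was the 1 contractile or pericyte marker of 6 whose classes did not overlap. Myh11, the smooth muscle myosin heavy chain, was at 193 CPM in NAC 2 and at 3.60 to 34.2 in the other rich libraries, beside 0 to 4.32 in the poor. Tagln, Cnn1, Des and Rgs5 were each at most 31.8 CPM in all libraries but NAC 2, where Rgs5, a pericyte gene, had 106 CPM. The contractile and pericyte genes made up 10.7% to 24.9% of the marker sum in the rich libraries.

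Across the treatments, the mean log2 marker sum was 9.65 in NAC and 8.22 in saline, a difference of 1.44 that did not pass (exact two-sided permutation test over 210 splits, p = 0.205; the smallest p possible is 0.00476). Without NAC 3, the poor NAC library, the difference was 2.39 (exact permutation p = 0.0357, smallest possible 0.0119). NAC 3 holds the lowest sum of the NAC libraries, so leaving it out widens the difference by itself. That value is a description of how far the result rests on NAC 3. Within the rich libraries the sums of NAC (1003 to 2730 CPM) and saline (554 to 1155 CPM) overlapped through saline 6. Leaving out any other library gave exact permutation p-values of 0.143 to 0.452. Treatment was a covariate in all tests of genes unless stated.

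Over all genes, rich were compared with poor libraries by edgeR's quasi-likelihood test with Benjamini-Hochberg adjustment. The 16 markers were fitted and kept in the adjustment, over 10945 genes, but not counted, which left 10929 genes. Markers that are apart by the rule take ranks in the adjustment. Adjusted p-values of other genes can therefore be lower than they would be without the markers, in DESeq2 and limma as well. A single gene passed an adjusted p under 0.05, Sparc, higher in the rich libraries (0.00915% of the genes tested), and 0 genes passed as lower (0%). At an unadjusted p under 0.05 there were 153 higher (1.4%) and 71 lower genes (0.65%). DESeq2 called 16 genes, all higher (0.146%), and limma-voom 1, Sparc. By edgeR, 12 genes were called without NAC 2, 5 without both NAC 2 and NAC 3, 2 without saline 2 and 0 without NAC 3, NAC 4, saline 1, saline 3, saline 5 or saline 6, all higher. Positive log2 folds were fitted for 5866 genes (53.7%) and negative ones for 5063 (46.3%), and the median log2 fold over all tested genes was 0.04. The 9 genes with an edgeR adjusted p under 0.1 (0.0823%) were all higher in the rich libraries. That count may be smaller with the markers left out of the adjustment, which was not computed. In 79 genes each rich library lay above each poor one (0.723%), and in 27 each lay below (0.247%).

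**Figure D2:**
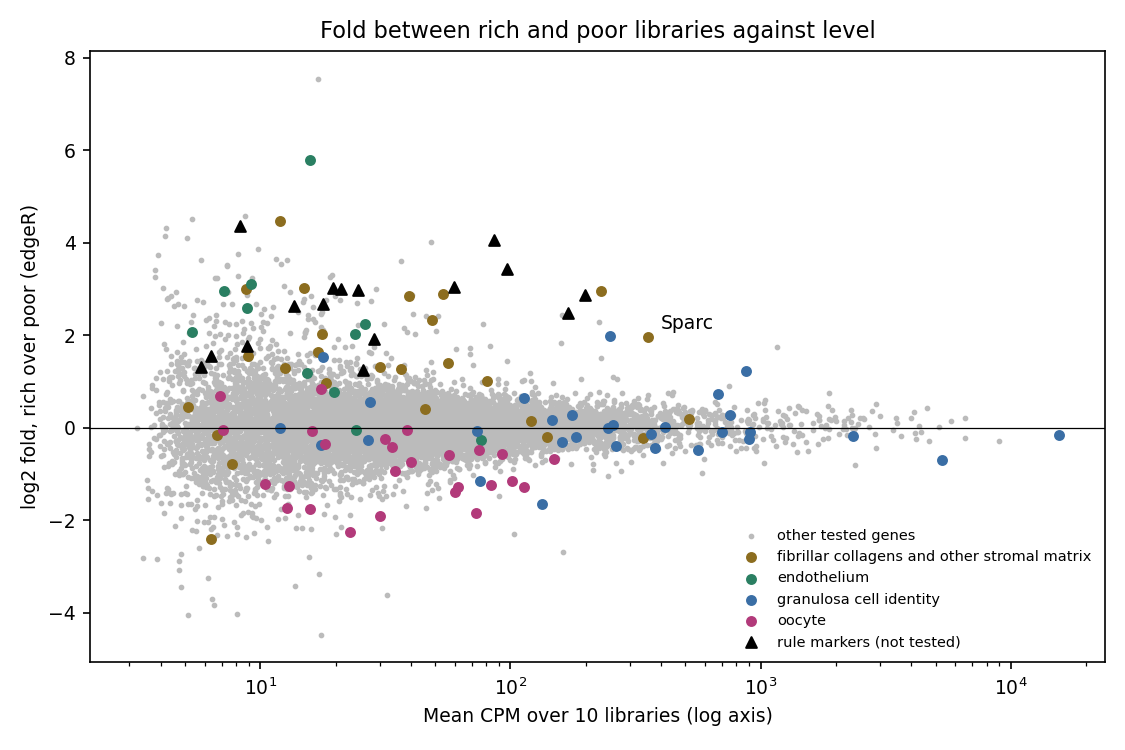
Log2 fold of rich over poor libraries from edgeR (y axis) against mean CPM over the 10 libraries (x axis, log scale) for all tested genes in grey, with 4 gene lists in colour and the 16 rule markers, which chose the classes and were fitted but not counted, as black triangles. Most genes lie near the median of 0.04, and Sparc, the 1 gene called, stands at 1.96.

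Sparc encodes osteonectin, a secreted protein that binds collagen and calcium (chromosome 11, 55394500 to 55423183). It had 357 to 729 CPM in the rich libraries (median 450) and 190, 117, 68.2 and 99.0 CPM in NAC 3, saline 1, saline 3 and saline 4. Each rich library was above each poor one. The log2 fold was 1.96 (SE 0.27; mean 512 ± 172 CPM, SD, n = 6 rich, and 119 ± 51.8, SD, n = 4 poor; edgeR adjusted p = 0.0287). Among the saline libraries alone it was 2.03 (edgeR adjusted p = 0.0151), and without NAC 2 and NAC 3 it was also 2.03 (edgeR adjusted p = 0.00640). The call rested on a small margin. With the continuous log2 marker sum in place of the classes, Sparc was not among the 7 genes called (edgeR adjusted p = 0.0547). The call was also lost with total reads as a covariate (edgeR adjusted p = 0.0763), with the oocyte marker sum as a covariate (0.122) and on log2(TPM + 1) with limma (0.258). It was also lost without NAC 3, NAC 4, saline 1, saline 3, saline 4, saline 5 or saline 6 (edgeR adjusted p = 0.0733 to 0.235), while the log2 fold lay between 1.87 and 2.04 with each library left out. Among the rich libraries the NAC values, 501 to 729 CPM, all lay above the saline values, 357 to 399 CPM.

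The next 8 genes by p had edgeR adjusted p-values of 0.0688 to 0.0812 and did not pass. Prss35, which encodes a secreted protease-like protein (chromosome 9, 86743649 to 86758443), had 26.3 to 205 CPM in the rich libraries (median 56.7) and 8.64, 0.821, 4.04 and 1.73 CPM in NAC 3, saline 1, saline 3 and saline 4. Stc1, the hormone stanniocalcin (chromosome 14, 69029238 to 69041804), had 26.1 to 110 CPM and 0, 9.01, 2.04 and 1.73 CPM in the same order. Neither gene overlapped between classes. Their log2 folds were 4.02 (SE 0.65) and 3.60 (SE 0.61).

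Cald1, Tpm2 and Bgn belong to the contractile apparatus and the matrix. Cald1 encodes the actin regulator caldesmon (chromosome 6, 34598500 to 34775473) and had 34.7 to 229 CPM in the rich libraries and 43.2, 11.3, 10.99 and 11.2 in NAC 3, saline 1, saline 3 and saline 4. Only saline 5, at 34.7, lay under the value of NAC 3, which rests on 5 reads. Tpm2, a tropomyosin (chromosome 4, 43514711 to 43523765), had 21.4 to 79.2 CPM and 1.502 to 8.64 CPM, without overlap. Bgn encodes biglycan, a matrix proteoglycan (chromosome X, 73483602 to 73495933), and had 22.9 to 83.9 CPM beside 0 to 9.08 CPM, also without overlap. The log2 folds of these genes were 2.25 (SE 0.37), 3.00 (SE 0.55) and 2.86 (SE 0.53).

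Nrp1, Igfbp7 and Emcn are genes of vessels and their surroundings. Nrp1, a co-receptor of VEGF and semaphorins (chromosome 8, 128358604 to 128503363), had 16.2 to 95.9 CPM in the rich and 2.25 to 8.64 CPM in the poor libraries (log2 fold 2.73, SE 0.50). Igfbp7, a secreted IGF-binding protein (chromosome 5, 77349240 to 77408041), had 231 to 515 CPM and 0, 35.3, 29.7 and 96.8 CPM (log2 fold 2.96, SE 0.54). Emcn encodes endomucin, a surface protein of venous and capillary endothelium (chromosome 3, 137341067 to 137432185). It had 8.76 to 82.8 CPM in the rich libraries, while the poor libraries held 0 reads in 3 libraries and 0.407 CPM, a single read, in saline 3. Its fitted fold depends on the treatment of zeros and is not given. For Nrp1, as for Sparc, the NAC rich libraries, 41.4 to 95.9 CPM, lay above the saline rich libraries, 16.2 to 24.8 CPM.

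**Figure D3:**
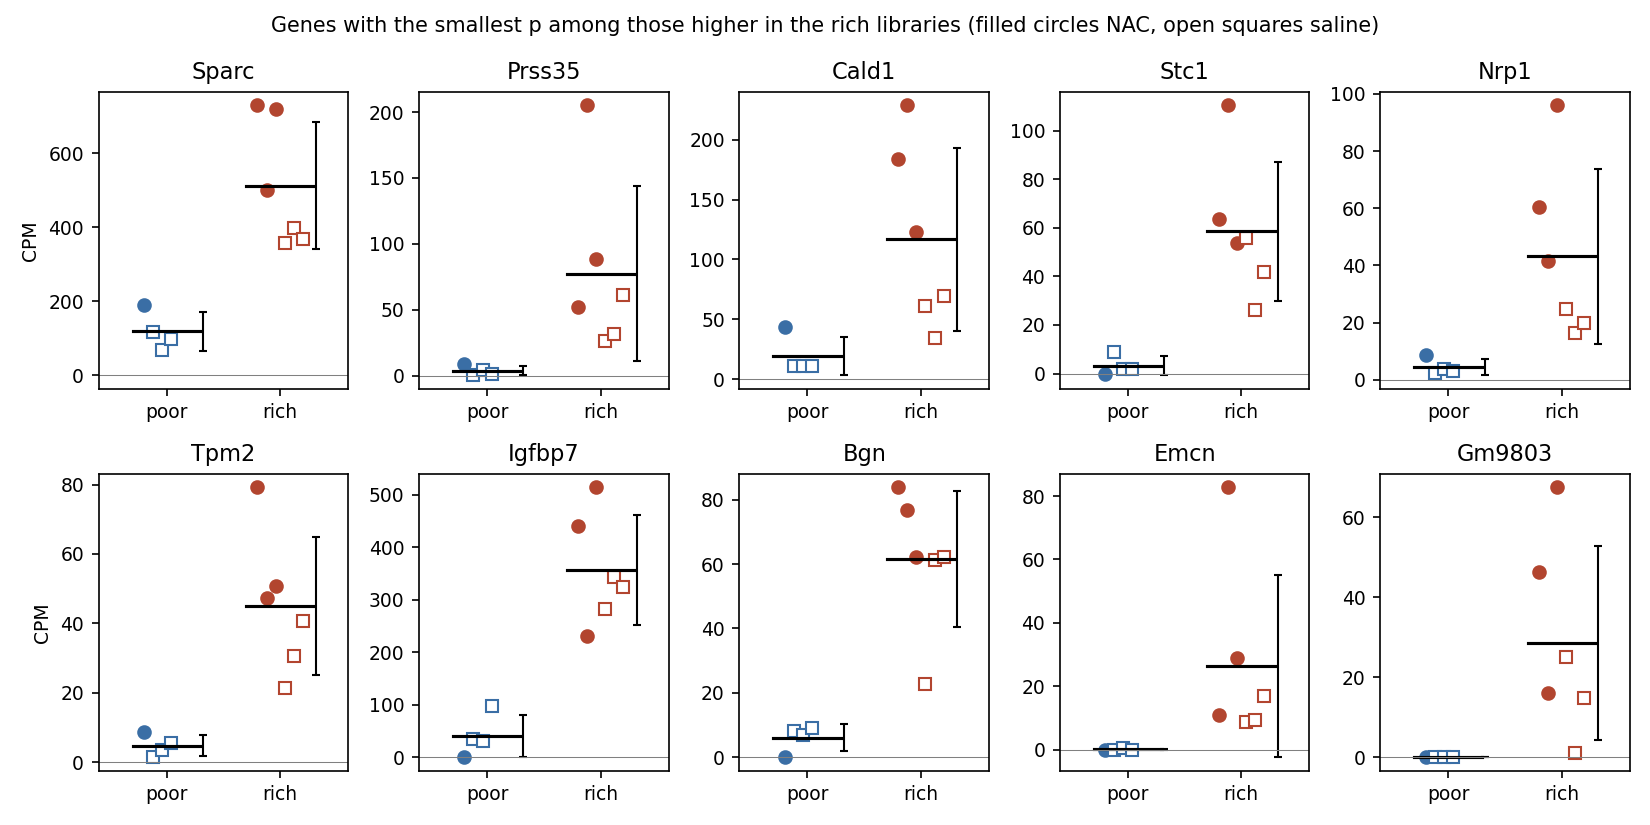
CPM (y axis) of the 10 genes with the smallest p among those higher in the rich libraries, in the 4 poor and 6 rich libraries; filled circles are NAC and open squares saline, the horizontal line is the mean of the class and the bar beside it 1 SD. Sparc at 68.2 to 190 CPM in the poor and 357 to 729 in the rich libraries is the 1 gene called. Of the 10, only Cald1 overlaps, which follows in part from their choice by p. Over all tested genes other than the markers, 0.723% lay higher in each rich library than in each poor one.

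Gm9803, the 10th gene on this side, is a predicted gene of 563 bases and had 1.15 to 67.4 CPM in the rich libraries and less than 1 read in each poor one (edgeR adjusted p = 0.143). Salmon splits reads among similar sequences, so values of such short predicted genes are uncertain. On the other side none of the 10 genes with the smallest p passed, with edgeR adjusted p-values of 0.838 and above. Gm10182, a processed pseudogene, had 11.8 to 71.8 CPM in the poor libraries and was near 0 in all rich ones but saline 5 (8.86 CPM). Runx1, a transcription factor gene that granulosa cells express, had 33.1 to 67.5 CPM in the rich libraries and 60.5, 106, 142 and 154 CPM in NAC 3, saline 1, saline 3 and saline 4 (log2 fold -1.16, SE 0.38). Its classes overlapped through NAC 3 and saline 6.

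The other 8 on that side overlapped as well. Arhgap29, a gene for a GTPase-activating protein, had 89.2 to 372 CPM in the rich and 191 to 570 CPM in the poor libraries (log2 fold -0.93). Ier3, an early response gene, had a log2 fold of -1.54, Elf3, an epithelial transcription factor gene, of -1.40, and Gatm, an enzyme gene of creatine synthesis, of -1.54. Rab4a, a gene of endosome recycling, had -1.21, the mismatch repair gene Pms1 -1.88, Dcaf12 -0.93 and Abcd2, a peroxisomal transporter gene, -1.25. For Arhgap29, Pms1, Rab4a, Ier3, Dcaf12, Gatm and Elf3 the highest value of all was that of NAC 3; without it their log2 folds were -0.65 (Dcaf12) to -1.72 (Pms1).

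**Figure D4:**
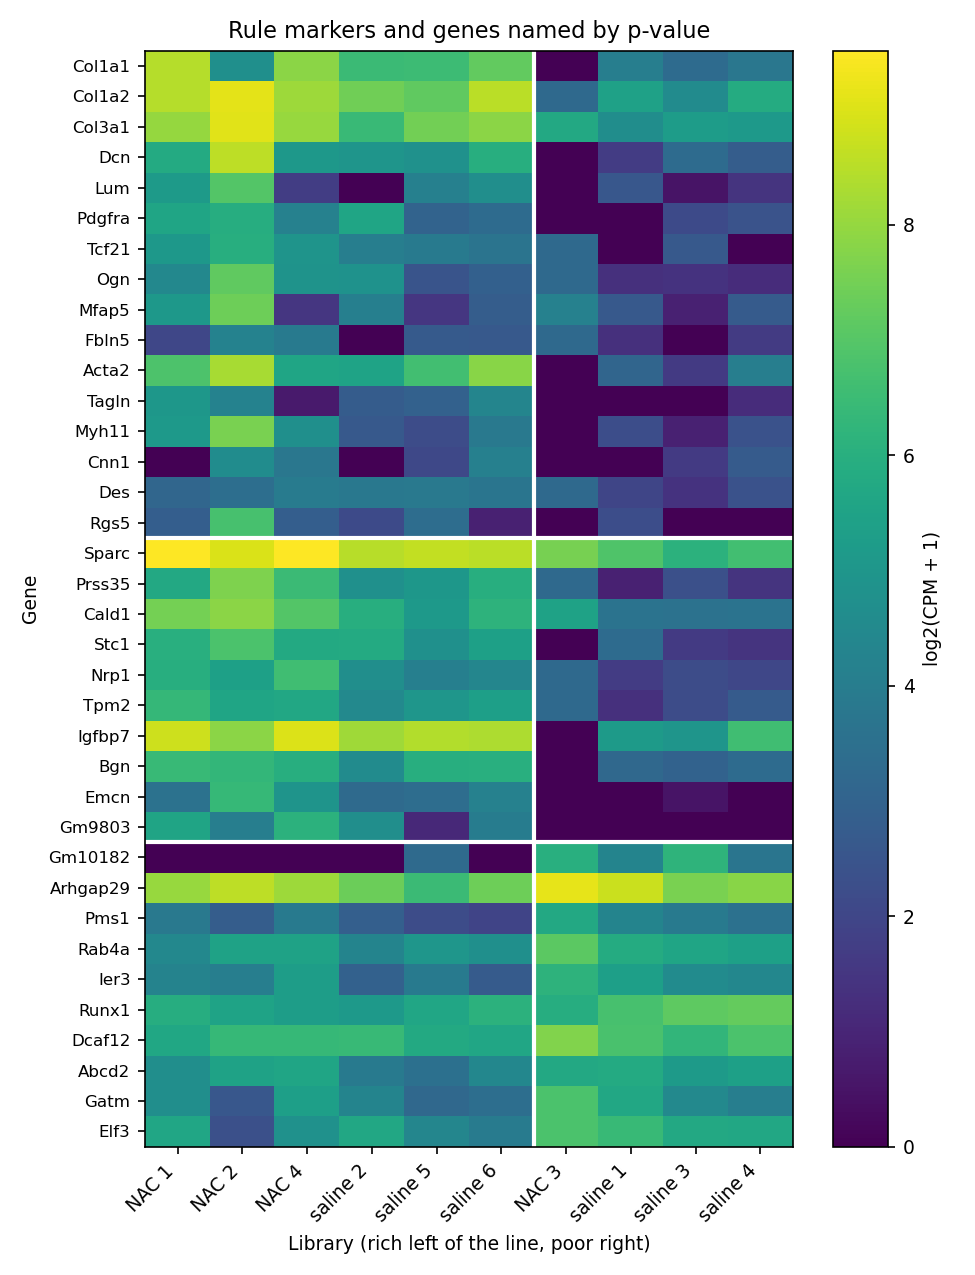
Log2(CPM + 1) in colour for the 16 rule markers (top block), the 10 genes with the smallest p on the higher side (middle) and on the lower side (bottom), with the 6 rich libraries left and the 4 poor libraries right of the white line. Each marker and Emcn reaches its lowest value in a poor library, though Lum and Fbln5 are also at 0 in saline 2, and Cnn1 in NAC 1 and saline 2. NAC 2 departs from the other rich libraries in Col1a1 (25.6 CPM).

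Gene lists place these genes among their pathways. Counts of members that passed are by edgeR unless DESeq2 is named. The low-count filter asks for reads in as many libraries as the smaller class holds. A rare gene can thus enter the test through rich libraries alone, which favours positive log2 folds among rare members. Over all tested genes DESeq2 called 0.146%. DESeq2 called Sparc, Igfbp7 and Bgn among the other matrix genes, Nid1, Col4a1 and Col4a2 among basement membrane genes, Cald1, Tpm2 and Myl9 among smooth muscle genes and Emcn among endothelial genes, with 0 members called in the other 13 lists. The list of other matrix genes has 35 members, of which 26 had enough reads to be tested; 21 had positive and 5 negative log2 folds, with a median of 1.30 beside 0.04 over all genes. By edgeR Sparc passed and the others did not. Summed over all 35 members, the list stood at 2235 to 3447 CPM in the rich libraries and at 1452, 1644, 1507 and 1530 CPM in NAC 3, saline 1, saline 3 and saline 4, without overlap. Without Sparc and Igfbp7, left out after their values were seen, the sums were 1595 to 2278 and 1262 to 1492 CPM.

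Values within that list were uneven. Col6a1, a chain of the beaded-filament collagen VI, had 13.8 to 126 CPM in the rich and 0 to 29.3 in the poor libraries (log2 fold 2.32, SE 0.64, edgeR adjusted p = 0.921), and NAC 2 held its lowest rich value. Col6a2, its partner chain, named after its values were seen, was at 0 in NAC 2 and at 65.3 to 163 CPM in the other rich libraries, beside 0 to 20.8 CPM in the poor. Col12a1, Fbln1, Fbln2, Ctgf and Serpinf1 had negative log2 folds, of which that of the elastic fibre gene Fbln2 was -2.39. Enzymes of collagen processing and remodelling showed sums of 2349 to 3479 CPM in the rich and 2735 to 3490 in the poor libraries, with 0 of 22 tested genes past the threshold and a median log2 fold of 0.34. In that list Timp3, an inhibitor of metalloproteinases, had 20.6 to 102 CPM in the rich and 6.05 to 17.3 in the poor libraries (log2 fold 1.62), without overlap.

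Basement membrane genes, which granulosa cells also express, overlapped as a sum (1184 to 2023 and 1038 to 1544 CPM), and 0 of 18 tested passed by edgeR and 3 by DESeq2 (median log2 fold 0.37). In 4 of the 18 the classes did not overlap, beside 0.723% of all genes. Nid1, which encodes nidogen and links laminin to collagen IV, had 24.3 to 160 CPM in the rich libraries and 0, 10.5, 1.22 and 6.49 CPM in NAC 3, saline 1, saline 3 and saline 4 (log2 fold 2.87, SE 0.65, edgeR adjusted p = 0.352). Col4a1 had 95.4 to 400 CPM and 8.64 to 81.8 CPM, Col4a2 56.9 to 116 and 8.64 to 33.7 CPM, and Lama2, a laminin chain of muscle and stroma, 22.98 to 120 and 0 to 13.0 CPM.

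The other smooth muscle genes summed to 805 to 2052 CPM in the rich libraries and to 639, 635, 636 and 676 CPM in NAC 3, saline 1, saline 3 and saline 4, without overlap. Of the 24 members 18 were tested, 14 with a positive log2 fold (median 0.73), and 0 passed by edgeR and 3 by DESeq2. Myl9, the regulatory light chain of smooth muscle myosin (chromosome 2, 156775420 to 156781658), had 41.9 to 98.2 CPM in the rich and 0, 15.0, 14.3 and 11.2 CPM in the poor libraries (log2 fold 2.46, SE 0.51, edgeR adjusted p = 0.155). Mylk, the kinase that activates this light chain, had 343 CPM in NAC 2, 18.9 to 106 in the other rich libraries and 7.35 to 43.2 in the poor (log2 fold 1.72, and 1.46 without NAC 2). Without Cald1, Tpm2, Myl9 and Mylk the sums were 661 to 1383 and 544 to 641 CPM.

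Many smooth muscle promoters carry the CArG box, the site bound by serum response factor: CC, then 6 letters that are each A or T, then GG, a pattern that reads the same on both strands. RefSeq windows of 300 bases on GRCm38.p6, from 250 bases before to 50 after the annotated start, were searched for it. They were at hand for 21 of the 24 other smooth muscle genes and 4 of the 6 contractile and pericyte markers; the rest were not searched. The exact pattern was found in 4 of 24 windows of the other smooth muscle genes (16.7%; Myl9, Vcl and 2 windows of Ldb3), in 0 of 4 windows of the contractile and pericyte markers, and in 535 of all 32851 windows (1.63%). With 1 of the 6 central letters allowed to differ, a change made after seeing the data, it was found in 6 of 24 windows (25%), in 1 of 4 (25%), that of Acta2, and in 3280 of all windows (9.98%). Of the genes with a match, Ldb3 had reads in NAC 1 alone (6.21 CPM), and Pcp4, with a looser match, was at 0 in every library. The windows of Myl9 (chr2:156775214-156775513, plus strand) and Acta2 (chr19:34255324-34255623, minus strand) are printed because these genes of the contractile apparatus were apart between the classes, with capitals for each match of the looser pattern. Acta2 is a rule marker, so its separation follows in part from the rule. In Myl9 the exact box starts 161 bases before the start and a looser match 99 bases before it. In Acta2 both are looser matches, which start 84 and 34 bases before it.
Myl9: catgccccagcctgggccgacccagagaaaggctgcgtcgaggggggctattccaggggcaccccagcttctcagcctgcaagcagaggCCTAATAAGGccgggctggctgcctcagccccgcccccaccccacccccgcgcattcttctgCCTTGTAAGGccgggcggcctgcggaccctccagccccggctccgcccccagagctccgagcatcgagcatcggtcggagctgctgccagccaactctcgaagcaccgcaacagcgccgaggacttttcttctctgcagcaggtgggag
Acta2: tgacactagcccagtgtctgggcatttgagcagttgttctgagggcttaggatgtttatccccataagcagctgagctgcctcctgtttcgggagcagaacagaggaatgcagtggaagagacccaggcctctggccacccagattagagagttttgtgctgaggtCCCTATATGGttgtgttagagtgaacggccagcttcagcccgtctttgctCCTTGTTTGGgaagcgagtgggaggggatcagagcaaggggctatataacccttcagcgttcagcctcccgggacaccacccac
A match is a description of these letters and not a measured site.

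Pericyte genes other than the markers summed to 71.2 to 248 CPM in the rich and 39.1 to 69.1 CPM in the poor libraries, and the lowest rich and highest poor value, in saline 2 and NAC 3, lay less than 1 read of NAC 3 apart. Only 6 of 14 were tested, and 0 passed. Gucy1a1, a subunit of the nitric oxide receptor, had a log2 fold of 1.22, Pdgfrb, the PDGF receptor that defines pericytes, of 1.54, Abcc9 of 1.74 and Mcam of 1.38. Pdgfrb was at 8.76 to 53.6 CPM in the rich and 0 to 13.0 CPM in the poor libraries.

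Endothelial genes were sparse in all libraries and set the classes apart as a sum. The 29 members stood at 217 to 637 CPM in the rich libraries, and at 130, 155, 134 and 179 CPM in NAC 3, saline 1, saline 3 and saline 4. Without Emcn the sums were 200 to 554 and 130 to 179 CPM. Of the 11 members tested, 9 had positive log2 folds (median 2.07), and 0 passed by edgeR and 1 by DESeq2. Rare members such as Emcn and Cd93 entered the test through rich libraries alone, so this count and median follow in part from the low-count filter. Cd93, an endothelial adhesion receptor gene, had 5.69 to 37.4 CPM in the rich and 0 to 1.73 in the poor libraries (log2 fold 3.10, SE 0.96). Eng and Aplnr, receptor genes of endothelium, had log2 folds of 2.58 and 2.03, while Pecam1, a general endothelial marker, had 8.92 to 53.5 CPM in the rich and 5.94 to 43.2 in the poor libraries (log2 fold -0.06). Sox18, another member, had 17.7 to 144 CPM in the rich and 73.6 to 89.5 in the poor libraries (log2 fold -0.26).

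Leukocyte genes were rarer still. The 24 members summed to 26.3 to 205 CPM in the rich libraries and to 0, 15.0, 4.48 and 9.53 CPM in NAC 3, saline 1, saline 3 and saline 4. The highest value was that of NAC 2, without which the rich libraries reached 46.4 CPM; there the macrophage gene C1qc had 31.5 CPM and was at 0 in the other 9 libraries. Lcp1, an actin-bundling protein gene of blood cells, was the 1 member tested (2.16 to 11.3 and 0 to 1.502 CPM, log2 fold 2.67, SE 1.14) and did not pass. Lcp1 entered the test through rich libraries alone, so the sign of its log2 fold follows in part from the low-count filter. Ptprc, the common leukocyte antigen, was at most 3.11 CPM in any library. The endothelial and leukocyte sums as measured were thus higher in each rich library than in each poor one. In NAC 3, however, the endothelial sum rests on 15 reads, and 0 leukocyte reads there allow up to 25.9 CPM, beside 26.3 in saline 6. The part of these sums in the values of Sparc and the next 8 genes was not tested.

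Steroid-producing theca and interstitial cells were described because they lie next to the follicle wall. Their 22 genes summed to 6527 CPM in NAC 2, 6390 in saline 5 and 6395 in saline 6, and to 3333 to 3500 CPM in the other rich libraries. The poor libraries had 1944, 2505, 3869 and 3304 CPM in NAC 3, saline 1, saline 3 and saline 4, so the classes overlapped. Of 19 tested members 16 had positive log2 folds (median 0.55), and 0 passed. Cyp17a1, the enzyme of androgen synthesis that defines theca cells (chromosome 19, 46667165 to 46673172), had 18.1 to 37.4 CPM in the rich libraries and 0, 13.5, 2.85 and 0 CPM in the poor, without overlap (log2 fold 2.75, SE 0.89, edgeR adjusted p = 1.00). Cyp11a1, which starts steroid synthesis, had 28.7 to 113 CPM and 0 to 42.8 CPM (log2 fold 2.41), and Hsd3b1, which forms progesterone, 782 to 2716 and 147 to 921 CPM (log2 fold 1.75). Hao2, an oxidase gene, had a log2 fold of 2.42. Star, the cholesterol transporter of steroid cells, was at most 15.0 CPM in any library, and Insl3, a theca hormone gene, at most 16.1 CPM.

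**Figure D5:**
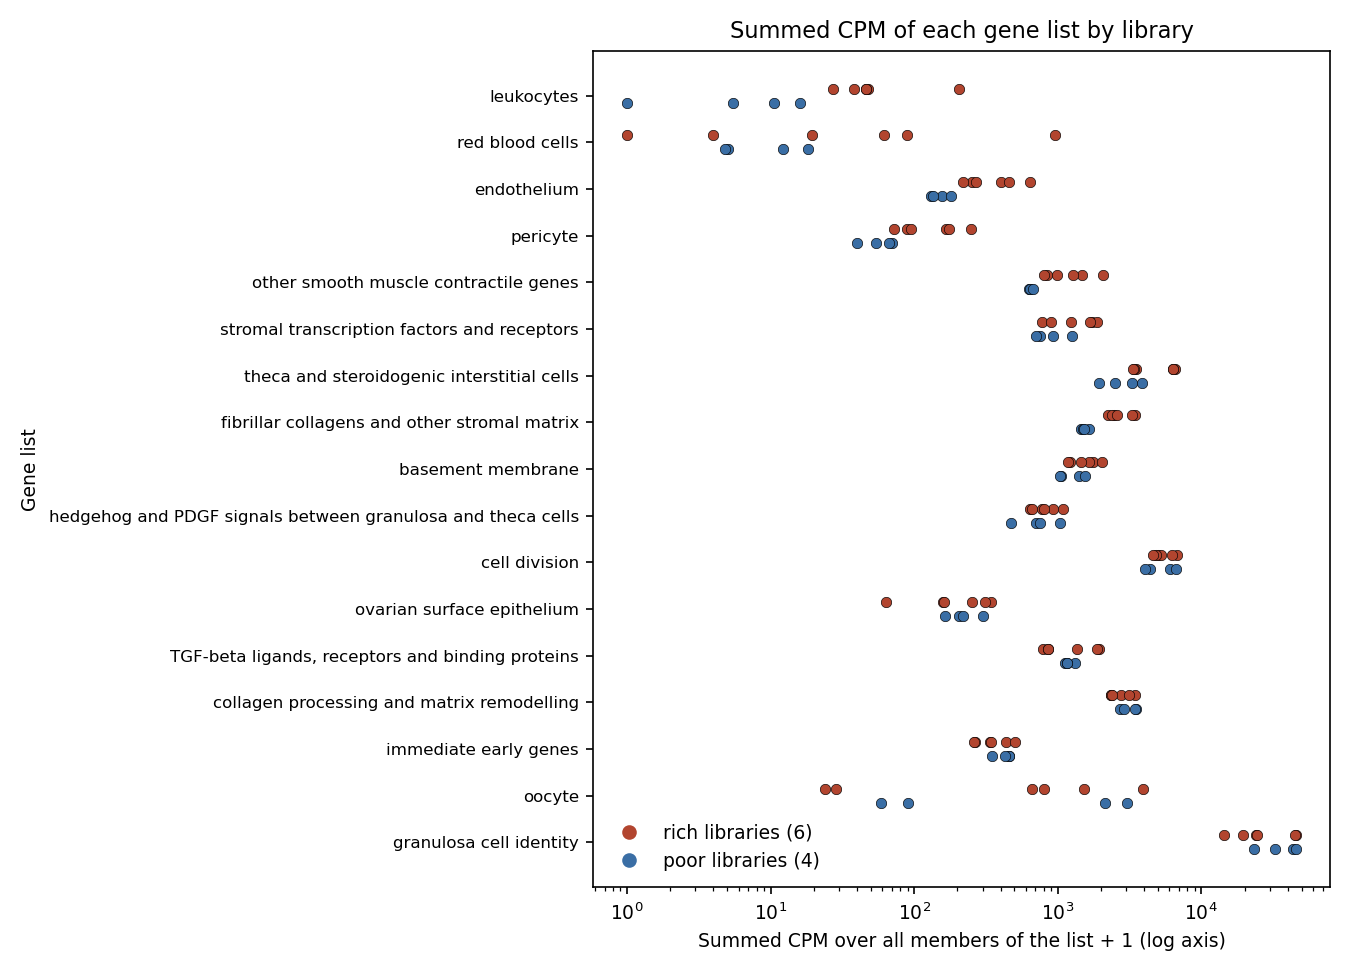
Summed CPM + 1 over all members of each of 17 gene lists (x axis, log scale) in each library; red points are the 6 rich libraries and blue points the 4 poor libraries. Other matrix genes, other smooth muscle genes, pericyte, endothelial and leukocyte genes do not overlap between the classes, while granulosa cell, oocyte and cell division genes do.

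Hedgehog ligands of granulosa cells act on receptors and targets in the theca, so this pathway was read from both sides. The ligand genes overlapped between classes: Ihh was at 98.5 to 418 CPM in the rich and 130 to 528 in the poor libraries (log2 fold 0.14), and Dhh had a log2 fold of -0.01. Among the targets, Gli1, the transcriptional effector, had 64.5 CPM in NAC 1, 30.8 in NAC 4, 17.0 in saline 2 and 0 in NAC 2, with at most 1.73 CPM in the poor libraries (log2 fold 3.62, SE 1.18). Hhip, a decoy receptor induced by the pathway, had 2.43 to 116 CPM and 0 to 8.64 CPM (log2 fold 2.77, SE 0.92, and 2.55 without NAC 2). Ptch1, the receptor, had 33.3 to 181 CPM in the rich libraries and 138 CPM in NAC 3 beside 18.3 to 38.0 in the other poor ones (log2 fold 0.82, and 1.19 without NAC 3). Pdgfc, a ligand for the marker gene Pdgfra, had a log2 fold of -1.01. Of the 12 tested members 0 passed (median log2 fold 0.23).

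Stromal regulators were low. Cd34, a surface protein gene of stromal and endothelial cells, had 7.79 to 31.5 and 0 to 5.26 CPM, and Maf, a transcription factor gene, 3.16 to 11.8 and 0 to 0.865 CPM, both without overlap. Nr2f2, a nuclear receptor gene of stroma, had 22.98 to 102 and 10.4 to 33.8 CPM (log2 fold 1.14). Of 16 tested members 0 passed (median log2 fold 0.57).

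Genes of TGF-beta signalling, which drives fibroblasts to make matrix, had 10 of 18 positive values (median 0.07), with 0 past the threshold. Ltbp4, a protein gene that stores latent TGF-beta in the matrix, had 5.91 to 47.4 CPM in the rich and 0 to 6.01 in the poor libraries (log2 fold 2.79, SE 0.80). Tgfbr2, a TGF-beta receptor, had 7.54 to 20.0 and 0 to 6.11 CPM, and Fstl1, a secreted glycoprotein gene of mesenchyme, 19.6 to 146 and 0 to 10.6 CPM, both without overlap. Id2, a target of the BMP arm, had a log2 fold of 1.03.

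Granulosa cell genes gave the check of the labelled cell type, and their sums overlapped between classes (14484 to 45860 and 23124 to 45513 CPM). Inha, the inhibin subunit that defines the cell type, was at 2489 to 28728 CPM in the rich and at 8815, 8249, 25818 and 29095 CPM in NAC 3, saline 1, saline 3 and saline 4 (log2 fold -0.16). Foxl2, the factor that maintains granulosa identity, had 80.8 to 203 and 106 to 179 CPM (log2 fold 0.17), and Fshr, the FSH receptor, 27.1 to 112 and 43.2 to 130 CPM (log2 fold -0.06). These 3 genes, chosen as defining members after their values were seen, were thus present in every library of both classes. NAC 2 held the lowest sum and the lowest Inha value. In NAC 2, 29 of the 30 members had at least 1 read, Cyp19a1 was at 0, and Amh had 1.97 CPM beside 60.5 to 302 CPM in the other libraries. Of 30 tested members 12 were positive and 18 negative (median -0.09), and 0 passed. The members with the smallest p were Inhbb, an activin subunit (log2 fold 1.23), Nr5a1, a steroidogenic regulator (0.65), Wt1, a factor of early granulosa cells (-1.65), and Runx1. Wt1 had 639 CPM in NAC 3 and 16.7 to 186 in the other poor libraries, beside 5.86 to 204 in the rich (log2 fold -1.24 without NAC 3).

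Oocyte RNA varied between libraries of both classes. The 30 oocyte genes summed to 22.98 to 3949 CPM in the rich and to 2130, 89.4, 57.4 and 3033 CPM in NAC 3, saline 1, saline 3 and saline 4, a difference of -0.25 in mean log2(CPM + 1) (exact two-sided permutation test over 210 splits, p = 0.924). Of 26 tested members 24 had negative log2 folds with a median of -0.84, and 0 passed. That median was 1.91 without saline 4 and -3.70 without saline 2. Nlrp5, a maternal effect gene, had 138 CPM in NAC 3 and 96.5 in NAC 4, and a log2 fold of -1.90. Nlrp14 had a log2 fold of -1.84, Dazl of -1.74 and Bmp15, an oocyte growth factor gene, of -1.76; all but Dazl changed sign with 1 library left out.

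The remaining lists overlapped between classes. Cell division genes summed to 4639 to 6808 CPM in the rich and 4032 to 6676 in the poor libraries, with 0 of 29 past the threshold (median 0.20); Ube2c had a log2 fold of 0.53, Ttk of 0.60, Cdk1 of 0.37 and Ccnb2 of -0.52. Immediate early genes had 10 of 15 negative values (median -0.37) and 0 past the threshold, but Egr1, a growth factor response gene, had 8.54 to 78.8 CPM in the rich and 0.407 to 8.64 in the poor libraries (log2 fold 3.31, SE 0.82, edgeR adjusted p = 0.582). In the same list Nr4a1 had a log2 fold of -1.15 and Jun of -1.18. Surface epithelium genes overlapped too: Krt8 had a log2 fold of -0.19, Krt18 of -0.06 and Podxl of -1.63.

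A few signals were uneven between libraries. Haemoglobin and other red blood cell genes summed to 962 CPM in NAC 4 and to at most 88.6 CPM (saline 2) in every other library. Upk3b, a uroplakin gene of the ovarian surface, had 21.7 CPM in NAC 1 and 23.5 CPM in NAC 4 and was at 0 in the other 8.

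Whether the difference between rich and poor libraries depended on treatment was tested with an interaction term. It was called for 0 of 10929 genes by edgeR (0%), with 452 at an unadjusted p under 0.05, and for 1 gene by DESeq2. The term rests on NAC 3 as the single poor NAC library, which is assumed to vary like the others. Among the saline libraries alone, 3 rich against 3 poor, edgeR called 1 gene, Sparc. Log2 folds there were 4.08 for Prss35, 2.30 for Cald1, 3.43 for Stc1, 2.54 for Igfbp7, 2.64 for Bgn, 3.04 for Tpm2 and 2.71 for Nrp1. The edgeR adjusted p-values of these and of Emcn were 0.0941 (Prss35) to 0.385 (Nrp1).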

How the data were processed

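For 4 NAC and 6 saline captures the authors deposited 1 Salmon table per library with estimated counts, TPM, and lengths in bases, on GRCm38 per the submitters' processing notes; tool versions were not given in the sources used here. Estimated counts and TPM are named so per the file headers. Rows that carry a transcript ID and no symbol (0.496% to 0.638% of reads) were left out. CPM were computed from the unrounded estimated counts. Counts were rounded and tested with edgeR 4.0.16 in R 4.3.3 (TMM factors, robust estimation, default low-count filter, treatment as covariate, Benjamini-Hochberg over all genes tested, adjusted p under 0.05). The filter took the rich and poor classes as its groups, and the adjustment included the markers. SE is the log2 fold divided by the square root of the F statistic. DESeq2 1.42.0 and limma 3.58.1, the latter also on log2(TPM + 1) of the deposited TPM, were alternatives.

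The rule on the marker sum, the members and the 17 gene lists were chosen with earlier results of these data known. Named genes are the 16 markers, the 10 genes with the smallest p in each direction at a mean of 10 CPM or more, and up to 4 members with the smallest p from each list; others are values of list members quoted for a cell type, chosen after their values were seen. Coordinates, gene types and GC content are from GENCODE M21, promoter windows from RefSeq (GRCm38.p6). Some genes are not reported here. Non-robust estimation and the looser CArG pattern were added as alternatives after seeing the data.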

Additional observations from a re-analysis of the deposited data

Results flagged for a closer look

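In 186 groups of values (each measure within the 6 rich or the 4 poor libraries, and the marker sum within each treatment), the highest or lowest library was checked for a distance from the rest on the log2(CPM + 1) scale, and 11 stood apart; chance gives about 1 in 20. Among the poor libraries NAC 3 was highest for Cald1 (43.2 CPM, next 11.3) and lowest for Bgn (0, next 6.92) and Myl9 (0, next 11.2). Saline 3 was the 1 poor library with a read of Emcn (0.407 CPM). The sum of other smooth muscle genes was highest in saline 4 (676 CPM, next 639), and that of TGF-beta genes in saline 1 (1312 CPM, next 1159).

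Among the rich libraries NAC 2 was highest for Fstl1 (146 CPM, next 41.2) and for the leukocyte sum (205 CPM, next 46.4). Bgn was lowest in saline 2 (22.9 CPM, next 61.3), Hao2 lowest in NAC 1 (1.55 CPM, next 12.1), and Gm10182 highest in saline 5 (9.01 CPM from rounded reads, next 0).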

How the results depend on the processing

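The count of 1 higher gene became 3 with library size alone, 33 without a low-count filter, 16 with DESeq2, 5 without the treatment covariate, 7 with the continuous log2 marker sum and 5 without NAC 2 and NAC 3. It became 0 on log2(TPM + 1) with limma, with the oocyte marker sum, with total reads as covariates and with the replicate block (edgeR adjusted p of Sparc 0.421). With each library left out it was 0 to 12: 12 without NAC 2, 2 without saline 2, 1 without NAC 1 (Sparc) or saline 4 (Igfbp7), and 0 without any of the others. The count of 0 lower genes became 10 without a low-count filter and was 0 in the other 28 alternatives. Interaction calls, 0 by edgeR, became 3 without a low-count filter and 1 with DESeq2. Causes were not tested. The other 4 class rules gave the same classes and so the same count, and non-robust estimation also gave 1.

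The difference in marker sum between NAC and saline was 0.85 to 2.39 on the log2 scale with each library left out. Its exact permutation p was under 0.05 only without NAC 3, the NAC library with the lowest sum, whose removal widens the difference by itself. Rich minus poor was -1.21 to 0.69 for the oocyte marker sum, -0.37 to 1.10 for log2 total reads and -22.7 to 9.16 bases for the length gap; the last 2 turned without NAC 3, and the first without NAC 3, saline 4, saline 5 or saline 6.

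Of 73 named genes, 12 changed sign somewhere. With the replicate block these were Mylk (-0.080), Abcc9 (-2.96), Mcam (-3.42), Krt8 (0.85), Krt18 (2.59), Cdk1 (-0.26) and Jun (0.69); with limma-voom Mcam (-0.27), and on log2(TPM + 1) Krt18 (0.16). Ccnb2 was 0.0095 with total reads as covariate, 0.0148 in saline libraries only and 0.0148 without NAC 2 and NAC 3. With 1 library left out the ranges were -2.67 to 0.17 (Podxl), -0.42 to 0.0056 (Krt8), -0.35 to 0.64 (Krt18), -3.68 to 0.28 (Nlrp5), -3.97 to 0.56 (Nlrp14), -4.16 to 2.01 (Bmp15) and -0.65 to 0.0306 (Ccnb2).

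Replicate numbers did not pair the samples: correlations of same-numbered NAC and saline libraries, as deviations from group means, were -0.0081, 0.0105, 0.00932 and 0.196. Depth limits NAC 3 most.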

Other observations

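Outside the lists, and chosen after their values were seen, 4 genes are given of the 79 (0.723% of those tested) that lay higher in each rich library than in each poor one; edgeR called none of the 4. Tmsb4x, an actin-sequestering protein gene, had 64.3 to 905 CPM in the rich and 15.0 to 23.6 in the poor libraries (edgeR adjusted p = 0.582); edgeR did call it with the continuous log2 marker sum, without NAC 2 and without a low-count filter. Vim, the intermediate filament of mesenchymal cells, had 68.1 to 412 and 40.7 to 65.3 CPM, Cdh11, a cadherin gene of fibroblasts, 8.11 to 82.8 and 0 to 3.89 CPM, and Cav1, a gene of caveolae, 10.9 to 104 and 0 to 5.62 CPM. Of the 27 genes on the other side (0.247%), Ldha, lactate dehydrogenase, had 490 to 1040 CPM in the rich and 1167 to 1240 in the poor libraries (log2 fold -0.51, SE 0.27). Txnrd1, thioredoxin reductase, had 49.3 to 122 and 128 to 157 CPM, and Shmt1, an enzyme of folate metabolism, 29.6 to 73.0 and 79.6 to 106 CPM. None of these 3 passed either, with edgeR adjusted p-values of 1.00.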
